A study of Rattus norvegicus with 6 samples.

Results

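The genes described here encode proteins of the nuclear lamina and of heterochromatin: the lamins Lmna, Lmnb1 and Lmnb2, the lamin B receptor Lbr, the 3 heterochromatin protein 1 (HP1) genes Cbx1, Cbx3 and Cbx5, and Samd7. They were chosen by name, and each of the 8 matched 1 row among the 19859 gene symbols of the table. The study sequenced RNA from rat neural retina, taken at postnatal day 60, in 6 samples that form 3 groups of 2. One group was Long Evans rats with sham surgery, the second was Royal College of Surgeons (RCS) rats with sham surgery, and the third was RCS rats that had received human neural progenitor cells under the retina. Surgery was at postnatal day 21 in all 3 groups, sham eyes were injected with medium without cells, and only the grafted region of each retina, or its counterpart in sham eyes, was used. RCS rats lose their photoreceptors over the first months of life through a defect in the gene Mertk. The labels do not say whether the samples of a group are separate animals.

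The deposited table has a single value per gene, in FPKM (fragment numbers divided by transcript length and by the size of the library), and names no sample. It may come from 1 library or a pool of libraries, so no group could be compared and no spread between animals is known. The values below compare genes with one another in retinal RNA of this series. FPKM is scaled to transcript length, which allows that comparison. Each value carries a lower and an upper bound set by the authors' software, which cover error within the table alone. If a bound lies 2 standard errors from the value and that error is counting alone, it implies a number of fragments. These implied fragments sum to 6124332 over the table and run from 103 for Lbr to 1414 for Samd7.

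In most nuclei of the body, heterochromatin lies against the nuclear envelope, held there by the lamin B receptor and by the A-type lamins, the products of Lmna. Rods of nocturnal mammals such as rats and mice lack both tethers when mature, and their nuclei are inverted: heterochromatin fills the centre and active chromatin lies at the rim. HP1 proteins bind histone H3 methylated at lysine 9 and compact that chromatin. Samd7 encodes a Polycomb repressive complex 1 (PRC1) protein of photoreceptors that keeps genes of other cell types silent in rods. These statements are background from other work, and none was tested on this table.

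The 8 genes ranged from 4.30 FPKM for Lmna to 101 FPKM for Samd7, with a median of 19.7 FPKM. The median over all symbols was 3.18 FPKM, and over the 12135 symbols at 1 FPKM or more it was 9.16 FPKM. All 8 reached 1 FPKM, as did 61.1% of all symbols. All 8 also lay above the median of all symbols, and 5 lay above that of symbols at 1 FPKM or more: Samd7, the 3 HP1 genes and Lmnb1. The tethers Lbr and Lmna were the lowest of the 8. In descending order the genes were Samd7, Cbx1, Cbx3, Lmnb1, Cbx5, Lmnb2, Lbr and Lmna. Counting intervals did not separate Cbx1 from Cbx3, Lmnb2 from Lbr, or Lbr from Lmna. The other 4 neighbouring pairs in the order were separated.

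**Figure D1:**
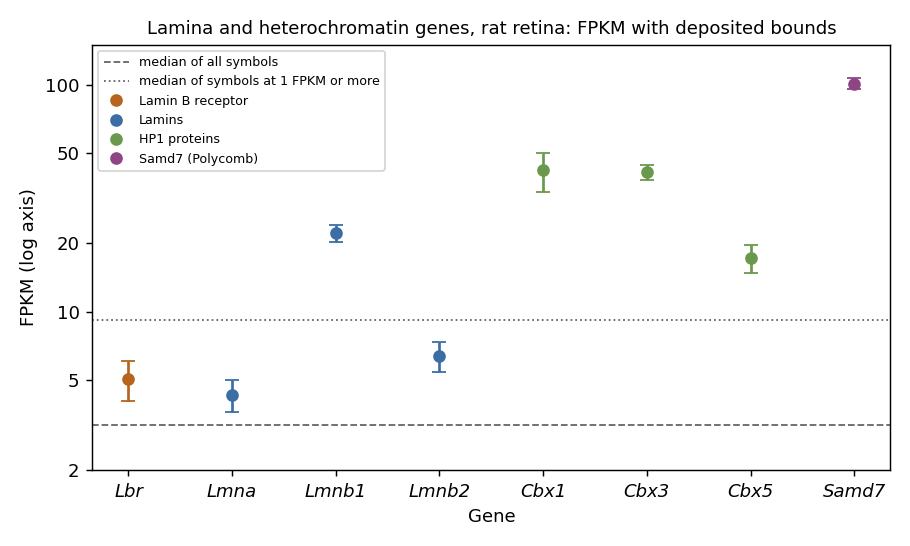
FPKM (log axis) of each of the 8 genes, coloured by role, with the deposited lower and upper bounds as bars; the dashed line is the median of all symbols (3.18 FPKM) and the dotted line the median of symbols at 1 FPKM or more (9.16 FPKM). Lbr, Lmna and Lmnb2 lie between the lines, and Samd7 stands highest at 101 FPKM.

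The peripheral tethers were present at low levels. Lbr, whose product spans the inner nuclear membrane, binds B-type lamins and HP1 and is also a sterol reductase, was at 5.05 FPKM (deposited bounds 4.06 to 6.05; an implied 103 fragments). This put it at the 57.3rd percentile of all symbols and the 30.2nd percentile of symbols at 1 FPKM or more. Its row (ENSRNOG00000003103) covers positions 106629769 to 106648432 of chromosome 13 in build rn5. Lmna, which gives lamins A and C by alternative splicing, was at 4.30 FPKM (3.60 to 4.9997; an implied 152 fragments), the 54.6th percentile of all symbols. Its row (ENSRNOG00000019638) covers 207245238 to 207265869 of chromosome 2 and sums both splice forms. Lbr was 1.17 times Lmna, with a 95% counting interval of 0.915 to 1.51, so the order of the tethers was not resolved at this depth.

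Bulk RNA mixes rods with all other cells of the tissue, and fewer cells of a type cannot be told apart from less RNA per cell. Markers of rods stood far above the tethers: 8 of 8 lay between 153 and 6316 FPKM, with a median of 815 FPKM. Markers of the other retinal neurons and of Müller glia were also present, with medians of 42.2 FPKM for amacrine cells, 47.2 FPKM for cones, 59.3 FPKM for bipolar cells, 87.2 FPKM for ganglion cells and 114 FPKM for Müller glia. Of the vessel and fibroblast markers, 5 of 8 reached 1 FPKM, against 61.1% of all symbols, and the list median was 1.46 FPKM. They ran from 0.145 FPKM for Col1a1 to 52.2 FPKM for Kdr, which stood apart from the next gene, Cldn5, at 3.75 FPKM. In the retinal pigment epithelium list 4 of 5 markers reached 1 FPKM, and the list median was 5.35 FPKM. Ttr was highest there at 152 FPKM, before Rpe65 at 20.7 FPKM, and Best1 was lowest at 0.27 FPKM. In the microglia and blood list 4 of 6 reached 1 FPKM, and the list median was 2.50 FPKM. Hbb was highest there at 13.2 FPKM, before Aif1 at 4.12 FPKM, and Cd68 was listed at 0. How much of the Lbr or Lmna signal each of these cell types gave was not tested.

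B-type lamins, which stay attached to the membrane by a farnesyl group, were higher than Lmna. Lmnb1 was at 22.2 FPKM (20.2 to 24.1; an implied 527 fragments), on chromosome 18 at 50979874 to 51017524 (ENSRNOG00000013774). Lmnb2 was at 6.38 FPKM (5.44 to 7.32; an implied 184 fragments), on chromosome 7 at 11828421 to 11844454 (ENSRNOG00000025742). Lmnb1 was the leading lamin gene: it stood 5.15 times above Lmna (4.30 to 6.17) and 3.47 times above Lmnb2 (2.94 to 4.11). Lmnb2 in turn was 1.48 times Lmna (1.20 to 1.84). Summed, the B-type genes were 6.63 times Lmna (5.57 to 7.90), a sum formed after the values were seen. Lmnb1 was also 4.38 times Lbr (3.55 to 5.41), the receptor named for binding its product.

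The HP1 genes were higher than either tether. Cbx1, which encodes HP1 beta, was at 42.0 FPKM (33.7 to 50.2), on chromosome 10 at 84462828 to 84470096 (ENSRNOG00000008689). Cbx3, which encodes HP1 gamma, a form found in active chromatin as well, was at 41.1 FPKM (38.2 to 44.1), on chromosome 4 at 145910666 to 145924081 (ENSRNOG00000011814). Cbx5, which encodes HP1 alpha, the form most tied to silent chromatin around centromeres, was at 17.3 FPKM (14.9 to 19.7), on chromosome 7 at 142605588 to 142623004 (ENSRNOG00000036841). Cbx3 was 2.38 times Cbx5 (2.04 to 2.78) and Cbx1 was 2.43 times Cbx5 (1.92 to 3.07). Cbx1 and Cbx3 were not separated, with a ratio of 1.02 (0.832 to 1.25).

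The Cbx1 value rests on less evidence than its level implies. It had an implied 104 fragments against 775 for Cbx3 at nearly the same FPKM, or 2.49 implied fragments per FPKM against 11.8 to 35.3 in the other 7 genes. By implied fragments, which are not scaled to length, Cbx1 moved from the second place to the seventh and its ratio to Cbx5 turned to 0.512. The implied numbers of Cbx1, Cbx3 and Lmnb2 lay 0.395, 0.396 and 0.0296 from a whole number, beyond what rounding of the printed digits allows. Under that reading the bounds of these 3 genes do not come from whole fragment counts alone, and the intervals of their ratios are approximate. The reason was not tested. Lbr, Lmna and Cbx5 were whole within 0.02. Whether processed copies of the HP1 genes share reads with these rows was not tested, and none of the 8 rows overlaps another row of the table.

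**Figure D2:**
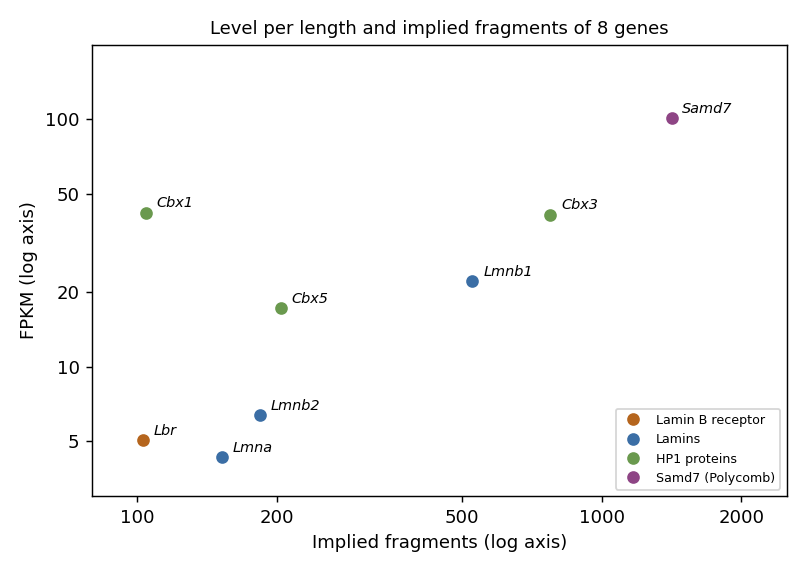
FPKM against implied fragments, both on log axes, for the 8 genes (1 point each, coloured by role). Cbx1 lies apart at 42.0 FPKM and 104 fragments, beside Lbr on the fragment axis and beside Cbx3 on the FPKM axis.

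**Figure D3:**
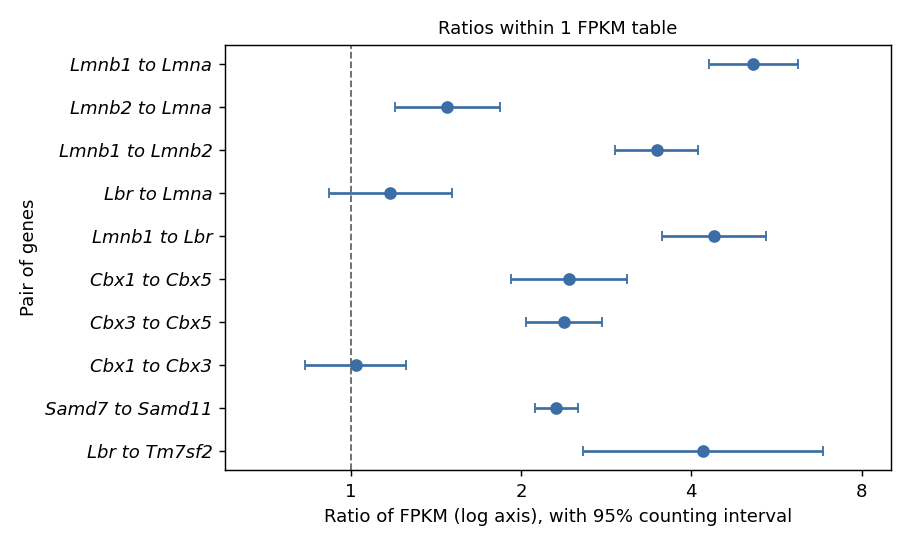
Ratios of FPKM for 10 pairs within the families, with 95% counting intervals (log axis); the dashed line marks a ratio of 1. The intervals of 8 pairs exclude 1, and those of Lbr to Lmna and of Cbx1 to Cbx3 include it.

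Samd7 was the highest of the 8. It stood at 101 FPKM (95.7 to 106; an implied 1414 fragments), in place 344 of 19859 symbols and at the 98.3rd percentile. Its row (ENSRNOG00000027995) covers 135937698 to 135952306 of chromosome 2. It was 2.31 times Samd11 (2.12 to 2.52), its partner in photoreceptor PRC1, which was at 43.8 FPKM (40.7 to 46.9). Samd7 was 4.41 times Phc2 (4.06 to 4.78). Phc2 is the highest of the 3 widely expressed polyhomeotic genes, whose PRC1 proteins also have a SAM domain. Phc2 was chosen for this pair after its value of 22.9 FPKM was seen, and Phc1 and Phc3 were at 10.04 and 9.26 FPKM. Samd7 was 23.5 times Lmna (19.9 to 27.8), the full range of the 8 genes.

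The DNA just upstream of the gene starts differed in CpG content, a sequence feature that the choice of genes did not use. In the 250 bases before each start in the RefSeq promoter table (build GRCr8), Lbr and Cbx3 each held 33 CpG dinucleotides, Lmnb1 31, Cbx1 15, Lmnb2 12, Cbx5 7, Samd7 5 and Lmna 2. The median over 12970 symbols matched to this table was 13. As a ratio of observed to expected CpG, Lbr was highest at 1.09 (95.7th percentile) and Lmna lowest at 0.101 (6.02nd percentile), although their FPKM values were not separated. Samd7 was at 0.403 and Cbx5 at 0.307, against a median of 0.660 over all matched symbols and 0.758 over those at 1 FPKM or more. Each window precedes 1 start per gene, which for Cbx5 is 1 of several. Other starts of the genes, Lmna and Lbr included, were not examined. Among the 230 matched symbols at or above the FPKM of Samd7, 17.4% had as few CpGs as Samd7 or fewer, against 11.7% of those at 1 FPKM or more and 25.5% of all. The 4 windows that mark the ends of these ranges are shown 5′ to 3′ on the coding strand with each CpG in capitals: Samd7, the highest gene, Lmna and Lbr, the tethers, and Cbx3, a highly expressed gene with a CpG-rich start. They are Samd7 at chr2:114572775-114573024 (minus strand), Lmna at chr2:176258236-176258485 (minus strand), Lbr at chr13:96095710-96095959 (minus strand) and Cbx3 at chr4:81876429-81876678 (plus strand).
Samd7: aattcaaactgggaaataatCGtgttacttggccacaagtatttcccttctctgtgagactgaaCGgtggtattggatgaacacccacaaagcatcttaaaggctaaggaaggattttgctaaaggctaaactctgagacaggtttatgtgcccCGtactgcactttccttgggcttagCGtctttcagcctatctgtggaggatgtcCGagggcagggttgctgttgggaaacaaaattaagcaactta
Lmna: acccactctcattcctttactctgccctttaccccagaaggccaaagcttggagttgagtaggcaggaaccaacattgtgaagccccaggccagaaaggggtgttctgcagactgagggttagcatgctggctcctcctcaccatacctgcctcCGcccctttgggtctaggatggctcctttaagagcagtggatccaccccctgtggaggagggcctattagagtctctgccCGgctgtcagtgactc
Lbr: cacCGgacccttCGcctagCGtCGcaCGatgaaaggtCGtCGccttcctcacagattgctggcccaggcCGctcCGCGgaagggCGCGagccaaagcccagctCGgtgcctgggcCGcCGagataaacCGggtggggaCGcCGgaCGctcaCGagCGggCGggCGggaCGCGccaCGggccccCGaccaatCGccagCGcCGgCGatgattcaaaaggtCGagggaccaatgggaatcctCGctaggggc
Cbx3: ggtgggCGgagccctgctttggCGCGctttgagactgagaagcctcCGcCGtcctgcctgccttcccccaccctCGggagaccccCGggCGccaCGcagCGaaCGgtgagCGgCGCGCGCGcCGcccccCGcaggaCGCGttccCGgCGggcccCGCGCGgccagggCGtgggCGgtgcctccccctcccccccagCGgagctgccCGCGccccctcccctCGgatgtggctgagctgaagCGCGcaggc
Short motifs, none of which contains another, were searched in all 8 windows on both strands. TAATCC, the core bound by photoreceptor homeodomain factors, was in 0 of 8 windows and in 5.28% of all matched windows. TATAAA was in 0 of 8 and 9.06% of all. CCAAT was in 3 of 8 (Lbr, Lmnb1 and Samd7) and 35.1% of all, and GGGCGG in 5 of 8 (Lbr, Lmna, Cbx1, Cbx3 and Cbx5) and 50.5% of all. A match is a description of the letters and not a bound site.

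**Figure D4:**
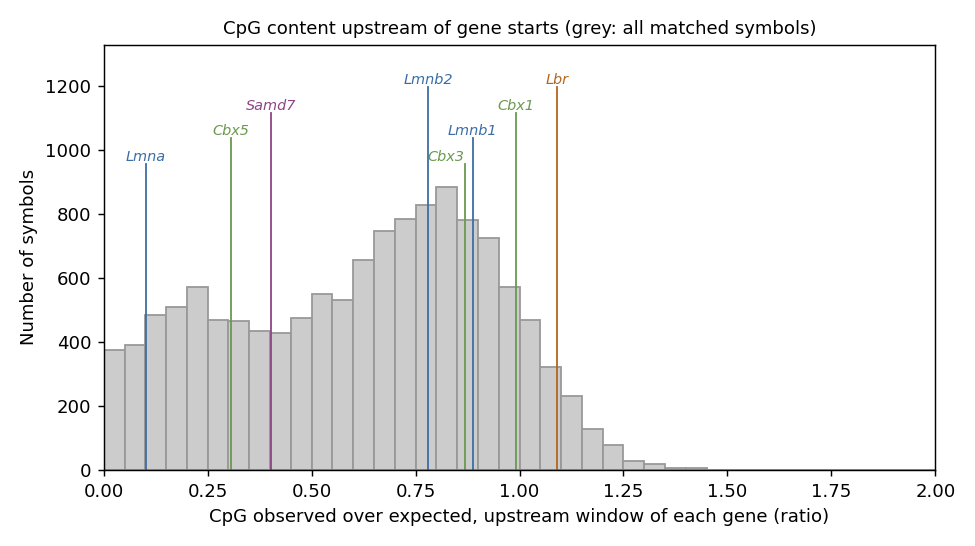
Histogram of the ratio of observed to expected CpG in the window upstream of each gene start (grey bars, number of matched symbols per bin), with a line for each of the 8 genes in the colour of its role. Lmna (0.101), Cbx5 (0.307) and Samd7 (0.403) lie in the CpG-poor part, and the other 5 lie above the median of 0.660.

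Cbx3 lies back to back with Hnrnpa2b1, an RNA-binding protein gene. In rn5 their rows are 818 bases apart, and in GRCr8 their starts lie 793 bases apart on opposite strands. Hnrnpa2b1 was at 78.7 FPKM (73.4 to 83.9), 1.91 times Cbx3 (1.74 to 2.11), a pair chosen after the values were seen.

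Other genes of the same machinery were read from 10 lists holding 141 genes, of which 138 were matched. Of these, 128 reached 1 FPKM (92.8%, against 61.1% of all symbols), and their median was 11.6 FPKM. Over all 19859 symbols, Samd7 was in place 344, and 54.6% lay below Lmna. Of the 138, 3 lay above Samd7 and 28 lay below Lmna. The 3 above were Hmgn2 at 306 FPKM, Hmgn1 at 161 FPKM (summed over its rows) and Hmga1 at 112 FPKM, all chromatin-loosening or architectural proteins of the HMG families. Those families have many near-identical copies in the genome, so the separate values of these genes are uncertain. The deposited bounds of Hmga1, 95.8 to 128 FPKM on an implied 191 fragments, include the value of Samd7.

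The list of inner nuclear membrane genes and lamina partners had a median of 15.0 FPKM, and 18 of 19 matched genes reached 1 FPKM. Prr14, which links HP1 to the lamina, led at 34.2 FPKM (31.1 to 37.3), followed by Banf1, which joins DNA to membrane proteins, at 31.5 FPKM (27.1 to 35.9). Syne4 was lowest at 0.479 FPKM. It has another row that differs in letter case, at 0.742 FPKM. The count above takes the row at 0.479 FPKM alone, and the 2 rows sum to 1.22 FPKM. Sun1 and Sun2, which carry force from the cytoskeleton to the lamina, stood at 20.5 and 5.08 FPKM, a ratio of 4.05 (3.47 to 4.73), named after their values were seen. Of the LEM-domain genes, also named after their values were seen, Tmpo was at 22.6 FPKM, Lemd2 at 19.0 FPKM, Lemd3 at 11.4 FPKM and Emd (emerin) at 6.01 FPKM.

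Enzymes that finish lamin proteins all reached 1 FPKM (5 of 5, median 12.9 FPKM). Icmt, which methylates farnesylated ends, led at 69.7 FPKM (66.01 to 73.4), and Fnta, a farnesyltransferase subunit, was at 37.7 FPKM (34.9 to 40.6). Zmpste24, the protease that matures lamin A, was the lowest at 9.90 FPKM (8.63 to 11.2). Lbr shares its sterol reductase activity with Tm7sf2, its closest relative, which was at 1.20 FPKM (0.652 to 1.76) on an implied 19 fragments. Lbr was 4.19 times Tm7sf2 (2.57 to 6.84). The sterol synthesis list had its median at 15.1 FPKM, and 6 of 6 genes reached 1 FPKM. Among them, Msmo1 was at 21.5 FPKM (19.3 to 23.6) and Cyp51 at 15.6 FPKM (14.1 to 17.1).

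Enzymes that write or erase methyl groups on histone H3 lysine 9 and H4 lysine 20 had a median of 15.5 FPKM, and 15 of 16 passed 1 FPKM. The demethylase genes Kdm4a and Kdm3b led at 35.1 FPKM (33.4 to 36.7) and 29.1 FPKM (27.1 to 31.1). Kdm4d was lowest at 0.418 FPKM, or 0.601 FPKM with its 2 rows summed ignoring letter case. The writers of the mark that HP1 binds at centromeric heterochromatin, Suv39h1 and Suv39h2, named after their values were seen, were at 4.46 and 5.50 FPKM, below each HP1 gene. Among HP1 partners the median was 13.9 FPKM, and 17 of 18 reached 1 FPKM. Hp1bp3 was highest at 61.7 FPKM (59.1 to 64.4), before the remodeller gene Chd4 at 34.7 FPKM (33.3 to 36.04). Chaf1b, a subunit of the chromatin assembly factor of replicating DNA, was lowest at 0.282 FPKM (0.0517 to 0.512).

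The list of methyl-DNA binders and related family members had a median of 12.5 FPKM, with 11 of 12 at or above 1 FPKM. Binding by each member was not tested. That median lay between the tethers and the HP1 genes. Zbtb4, a zinc finger methyl-CpG binder, led at 40.4 FPKM (36.2 to 44.5), close to Cbx1 and Cbx3, and Mbd3, a subunit of the NuRD deacetylase complex, was at 23.4 FPKM (20.8 to 26.0). Uhrf1, which recruits maintenance methylation during replication, was lowest at 0.248 FPKM (0.0606 to 0.436) on an implied 7.0 fragments, and its relative Uhrf2 was 74.2 times higher (35.2 to 156), a pair chosen after the values were seen. The enzymes that add or oxidise the methyl group had a lower median, 6.23 FPKM, and 6 of 7 reached 1 FPKM. Tet3 led at 13.3 FPKM (10.9 to 15.7) before Tet2 at 9.18 FPKM (8.44 to 9.91), and Dnmt3l was listed at 0. Markers of dividing cells lay below the median of all symbols: 1 of 5 reached 1 FPKM, and their own median was 0.527 FPKM.

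Genes of PRC1 other than Samd7 had a median of 10.2 FPKM, and 22 of 23 reached 1 FPKM. Among the matched symbols Samd11 led, followed by Cbx6 at 34.8 FPKM (32.8 to 36.8), and Scml4 was lowest at 0.120 FPKM. None of the 23 matched symbols was above Samd7. Rybp is the exception when rows are summed ignoring letter case: it has 2 rows that differ in letter case, at 33.7 and 68.7 FPKM, which sum to 102 FPKM. The list took the row at 33.7 FPKM, and the other row alone lies above Samd11 at 43.8 FPKM. The Polycomb members of the Cbx family bind methylated lysine 27 and not lysine 9 of histone H3. Named after their values were seen, Cbx7 was at 20.1 FPKM, Cbx8 at 7.24 FPKM and Cbx2 at 1.17 FPKM. The value of Cbx6 lay within the deposited bounds of Cbx1 and below those of Cbx3. By implied fragments the order was another, with Cbx6 at 1227, Cbx3 at 775, Cbx7 at 739, Cbx5 at 204 and Cbx1 at 104.

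In Polycomb repressive complex 2, which writes the lysine 27 mark, the median was 13.4 FPKM and 10 of 11 genes passed 1 FPKM. Rbbp7, a histone-binding subunit, led at 51.3 FPKM (48.2 to 54.5), followed by the core subunit gene Suz12 at 38.3 FPKM (35.8 to 40.9), and Phf19 was lowest at 0.204 FPKM. The catalytic subunit gene Ezh1 was 6.51 times Ezh2 (5.30 to 7.99), at 20.4 against 3.13 FPKM, a pair chosen after the values were seen. Linker histones and architectural proteins had a median of 10.2 FPKM, and 18 of 21 genes passed 1 FPKM. Hmgn2 and Hmgn1 led, and Hmga2 and Hist1h1a were listed at 0. H1f0, the linker histone of non-dividing cells, was at 27.2 FPKM (24.9 to 29.6), named after its value was seen.

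**Figure D5:**
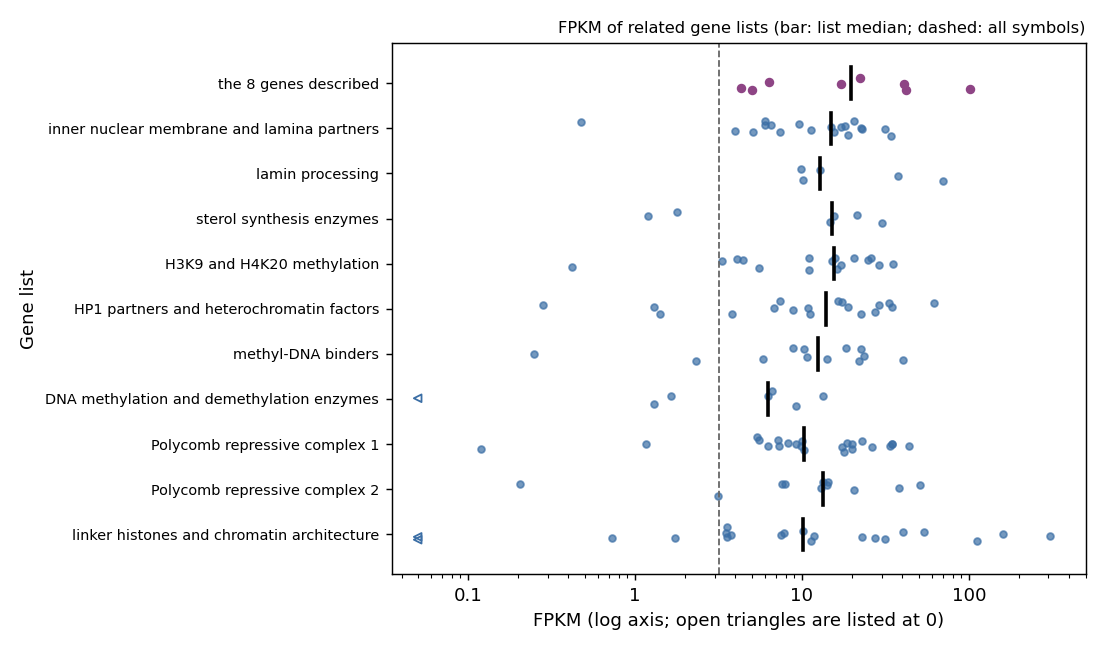
FPKM (log axis) of the 8 genes (top row) and of each matched gene of the 10 related lists (points), with each list's median as a black bar; the dashed line is the median of all symbols (3.18 FPKM) and open triangles are genes listed at 0. The list medians run from 6.23 FPKM for DNA methylation enzymes to 15.5 FPKM for histone methylation enzymes, and the median of the 8 genes is 19.7 FPKM.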

How the data were processed

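RNA of 6 retinal samples in 3 groups of 2 was sequenced after preparation with the Ion Total RNA-seq kit, per the labels' protocols. The authors deposited 1 gene table of FPKM values with lower and upper bounds in the Cufflinks format, per the file headers. Cufflinks 2.0.8 and build rn5 are listed in the submitters' processing notes. Which aligner and annotation release were used, and at what level the bounds were set, is not stated in the sources at hand. The table has 26406 rows, of which 20601 carry a symbol, and ties no column to a sample, so no test between groups was run.

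With Python 3.11.15, numpy 2.4.6 and pandas 2.3.3, rows with the same symbol were summed. The 8 genes were matched ignoring case. Related genes were matched by exact symbol (131), by case (3) or by a synonym in RefSeq GRCr8 (4), and 3 had no match. Implied fragments are the squared ratio of 2 FPKM to the distance of the upper bound. Counting intervals of ratios use 1.96 standard errors of the log ratio. Both calculations were run on simulated counts with counting error alone, which checks the arithmetic and not how the deposited bounds were set. Sequences are RefSeq's (GRCr8): all 8 genes matched, Samd11 did not. The members, lists and pairs were chosen with earlier results of these data known. Of each list the 2 highest genes and the lowest are named by rule, and others are marked as chosen after their values were seen; where a gene is not reported here, the next is taken. With 1 value per gene, no likeness of pattern across samples could be measured.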

Additional observations from a re-analysis of the deposited data

How the results depend on the processing

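The count of 8 genes at 1 FPKM or more was 8 at a minimum of 0.5 FPKM and with the lower bound in place of the value, and 7 at a minimum of 5 FPKM, where Lmna was lost. The share of all symbols was taken at 1 FPKM alone (61.1%), so the other counts have no background beside them. All 8 genes kept their place in the order by the upper bound. By the lower bound 6 did, as Cbx1 and Cbx3 changed places, and by implied fragments, which are not scaled to length, 1 did. Of the 10 ratios, all lay within their counting interval with a pseudocount of 0.1 or 1 and with lower or upper bounds (added after the data were seen). The intervals are built from the deposited bounds, so the bound settings could hardly leave them and are no check. With implied fragments, 3 ratios lay within their interval. The others became 3.47 for Lmnb1 to Lmna, 2.86 for Lmnb1 to Lmnb2, 0.678 for Lbr to Lmna, 0.512 for Cbx1 to Cbx5, 3.80 for Cbx3 to Cbx5, 0.135 for Cbx1 to Cbx3 and 1.79 for Samd7 to Samd11. Of these, Cbx1 to Cbx5, Lbr to Lmna and Cbx1 to Cbx3 crossed 1. By FPKM the counting intervals of Lbr to Lmna and of Cbx1 to Cbx3 include 1. Of 55 recomputed medians of the 8 genes and the lists, 15 were not identical to the value in the report, and the number that moved by over 1.5 times was 0. Keeping the highest row per symbol left the 8 genes as they are, since each has 1 row, so it is no check on them. No paired analysis was possible because no column belongs to a named sample. Depth limits the lowest values: Tm7sf2 rests on an implied 19 fragments, Phf19 on 9.0, Uhrf1 on 7.0, Scml4 on 6.1 and Chaf1b on 6.0. The Syne4 row at 0.479 FPKM rests on 5.5.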
